A study of Mus musculus with 18 samples.

Results

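Marker and signal genes of hepatic stellate cells and myofibroblasts were followed in liver tumors and non-tumoral livers of Alb-R26Met mice, namely Lrat, Reln, Des, Pdgfra, Pdgfrb, Pdgfb, Tgfb1, Acta2, Tagln and Vim. They were chosen by symbol, as known markers but with earlier results of these data known, and are 10 of the 28442 genes in the deposited table. The study profiled 6 livers from mice that had not developed tumors and 12 advanced tumors by bulk RNA-seq, to describe how this liver cancer model varies between tumors. All samples share 1 genotype, in which Cre driven by the albumin promoter switches on a mouse-human chimeric Met transgene in hepatocytes, so the livers carry the transgene too, and no wild-type liver was analysed here. The mice were F1 males, from R26stopMet parents in the C57BL/6JRj strain and Alb-Cre parents in a strain other than that one. Livers came from mice aged 52 to 71 weeks and tumors from mice aged 49 to 72 weeks. In all there were 17 mice for 18 samples, tumors 11 and 12 being of the same animal. Labels and the study's sample table gave tumors 3 and 10 unlike mouse numbers. Both were assigned through tumor number and tag, and the number of mice and the ages rest on that.

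Hepatic stellate cells lie between hepatocytes and the sinusoidal endothelium and store vitamin A as retinyl esters, which the enzyme encoded by Lrat makes. When the liver is injured they lose these stores, divide in response to PDGF, and become contractile, matrix-producing myofibroblasts under the influence of TGF-beta, with alpha smooth muscle actin (Acta2) as the usual mark of that state. Portal fibroblasts, pericytes and vascular smooth muscle cells express part of the same genes. The samples were pieces of whole tissue, in which fewer cells of a type and less RNA per cell cannot be told apart.

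The deposited values are whole numbers, which the paper describes as raw counts. They were read here as rounded TPM, a share of all transcripts corrected for gene length, which is how the paper's methods normalized the data, and every printed value rests on that reading. They summed to 835144 to 884597 per liver and 845356 to 907513 per tumor, and since TPM keep no read depth, no counting error can be attached to a value. For comparisons, each sample was scaled by its trimmed mean of M values, and the result is called a scaled value. Tumor 2 stood apart, because a single gene, Siglece, took 82.9% of its total, against 17.9% to 53.4% in the other 17 samples. In tumor 2 a deposited value of 1 became a scaled value of 5.15, against 0.701 to 1.27 elsewhere, and 6 of the 10 genes were listed at 0 there (Lrat, Des, Pdgfra, Pdgfb, Acta2 and Tagln). Results that rest on it are given with and without it.

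The stellate cell markers Lrat and Des and the PDGF receptor gene Pdgfra were lower in tumors, by 1.11, 0.61 and 0.86 on the log2 scale. The ligand genes Pdgfb and Tgfb1 were higher, by 1.13 and 0.76. Reln, Pdgfrb, Vim and the contractile genes Acta2 and Tagln did not pass the test. All 10 genes reached a scaled value of 1 in 6 or more samples, so that each was among the 11708 genes compared by limma on log2 (scaled value + 1), with Benjamini-Hochberg adjustment over all of them and a threshold of 0.05. Thus 2 of 10 were higher, where 9.81% of all tested genes were, and 3 of 10 were lower, where 9.22% were. Together 5 of 10 differed, against 19% of all tested genes. The median difference over all tested genes was -0.06 on the log2 scale. Without tumor 2, Acta2 also passed, which made 3 of 10 higher against 14.2% of all genes, and 3 of 10 lower against 12.1%. Without scaling 1 of 10 was higher against 5.03% of all genes and 2 were lower against 5.04%, and without scaling and without tumor 2 these were 3 against 10.9% and 3 against 7.9%. With a pseudocount of 0.1 in place of 1, only Tgfb1 of the 10 genes passed. The plot of all samples shows how far the groups overlap, and the plot of the differences sets them beside the fits without tumor 2 and without scaling.

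**Figure D1:**
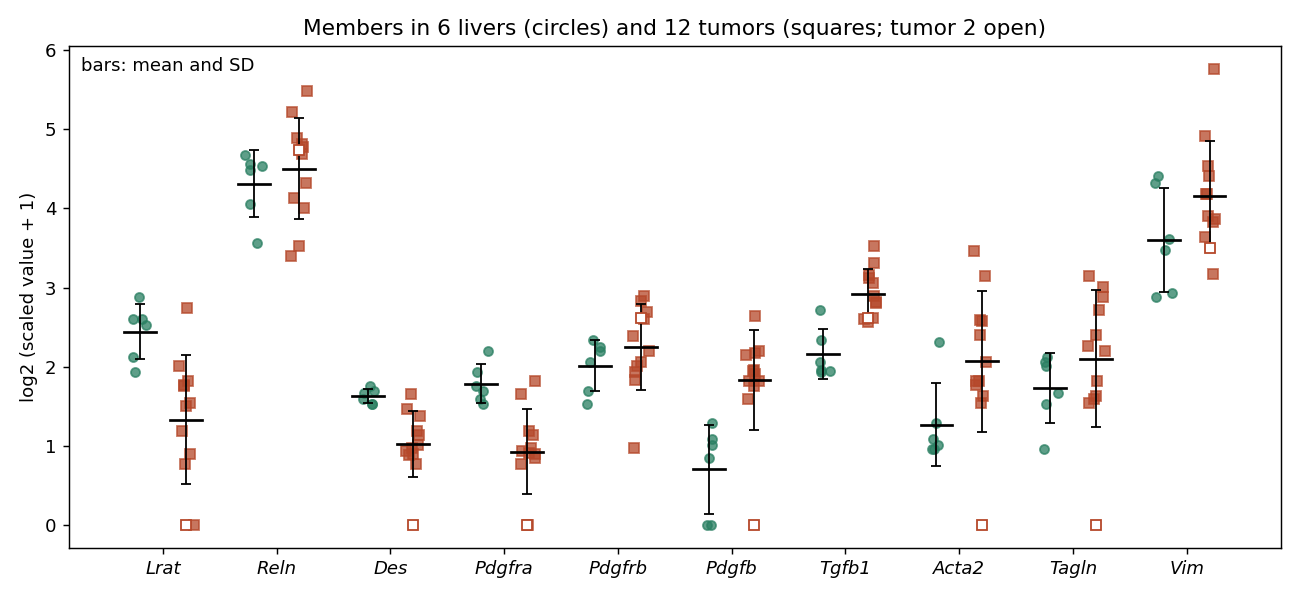
Scaled values of the 10 genes on a log2 axis (a pseudocount of 1 added), with a circle for each of the 6 livers, a square for each of the 12 tumors, tumor 2 as an open square, and bars for the mean and SD of the log2 values. For Pdgfb 11 of 12 tumors lie above every liver, and for Des 11 of 12 lie below every liver, whereas Reln, Tagln and Vim overlap widely.

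**Figure D2:**
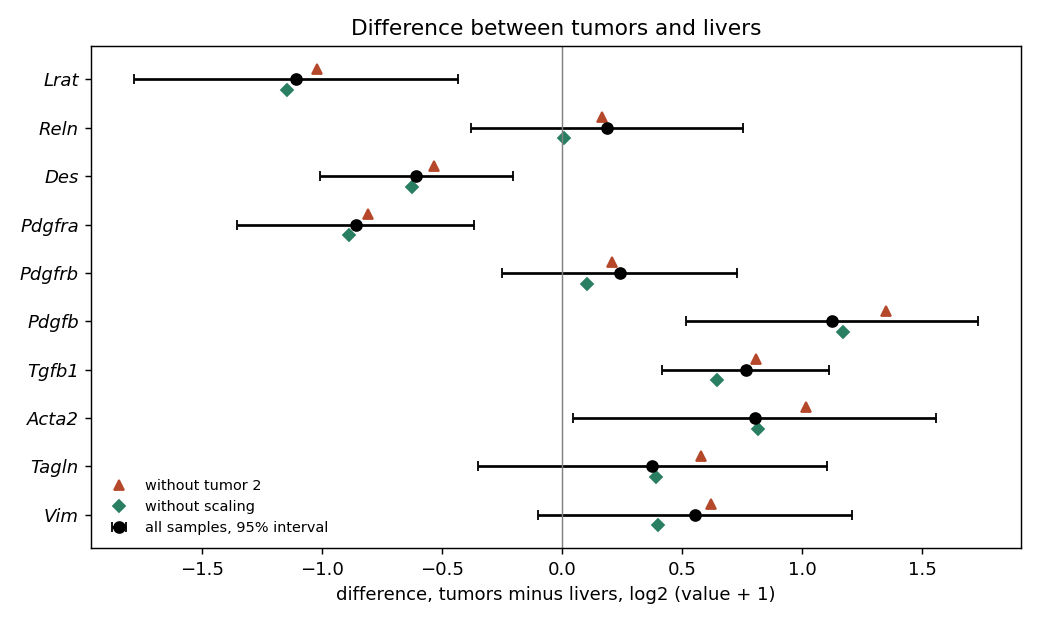
Difference between 12 tumors and 6 livers for each gene, in log2 (scaled value + 1), with its 95% interval from limma (black), the difference without tumor 2 (triangles) and without scaling between samples (diamonds, log2 of deposited value + 1). Leaving out tumor 2 moved Acta2 from 0.80 to 1.02 and Pdgfb from 1.13 to 1.35.

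For reference, the 250 bases upstream of the annotated start of 4 of these genes, read from the RefSeq promoter table of build GRCm38.p6, are shown 5' to 3' along the gene. The table held 7 of the 10 genes. Capitals mark CArG boxes, the element that serum response factor binds in smooth muscle genes, and GC boxes. A CArG box was searched as CC, then 6 bases of which at most 1 is G or C, then GG, a form that reads alike on both strands, and a GC box as GGGCGG on either strand. Acta2 (chr19:34255374-34255623, minus strand) and Lrat (chr3:82903975-82904224, minus strand) are shown for the CArG boxes, and Des (chr1:75360042-75360291, plus strand) and Tgfb1 (chr7:25686752-25687001, plus strand) for the GC boxes. The windows of Lrat, Des and Tgfb1 end where the gene span given below begins. That of Acta2 overlaps its gene span (chr19:34240336-34255585), so the start used for it lies inside the span.
Acta2: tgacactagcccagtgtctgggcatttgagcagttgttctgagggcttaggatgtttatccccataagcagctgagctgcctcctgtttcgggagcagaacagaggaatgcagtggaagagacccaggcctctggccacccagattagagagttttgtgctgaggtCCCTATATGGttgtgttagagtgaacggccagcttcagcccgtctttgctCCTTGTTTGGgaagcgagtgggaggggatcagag
Lrat: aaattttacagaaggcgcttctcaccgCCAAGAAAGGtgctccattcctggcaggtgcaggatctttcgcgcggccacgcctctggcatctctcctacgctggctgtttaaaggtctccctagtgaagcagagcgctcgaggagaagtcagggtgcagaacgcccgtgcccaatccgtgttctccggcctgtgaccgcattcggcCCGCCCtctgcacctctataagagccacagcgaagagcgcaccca
Des: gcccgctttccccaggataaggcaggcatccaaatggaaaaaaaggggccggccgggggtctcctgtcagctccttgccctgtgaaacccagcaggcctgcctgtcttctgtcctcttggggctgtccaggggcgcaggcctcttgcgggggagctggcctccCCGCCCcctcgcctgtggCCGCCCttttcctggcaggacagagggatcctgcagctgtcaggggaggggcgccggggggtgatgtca
Tgfb1: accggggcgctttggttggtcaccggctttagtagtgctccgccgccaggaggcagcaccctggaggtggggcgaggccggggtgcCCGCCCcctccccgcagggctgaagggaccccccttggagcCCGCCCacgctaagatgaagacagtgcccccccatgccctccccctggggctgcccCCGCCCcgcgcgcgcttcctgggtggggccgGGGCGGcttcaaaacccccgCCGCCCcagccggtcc
The Acta2 window held 2 CArG boxes, whose first bases lie 84 and 34 bases before the start, which 0.67% of the 32851 promoters in the table did. Lrat held 1, as 8.59% of promoters held at least 1, and a GC box. The Tgfb1 window held 5 GC boxes, Des 2 and Reln 6, against at least 1 in 32.7% of promoters. Capitals in different motifs did not overlap. These are matches of letters and not measured binding, and a window without a match says nothing about a factor.

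Lrat (chr3:82892582-82903974, as all positions on GRCm38.p6), the enzyme that esterifies retinol for storage, had the most negative difference of the 10 genes. Its deposited value ran from 3 to 8 in livers (median 5) and from 0 to 8 in tumors (median 2), with a mean of 5.17 ± 2.04 (SD, n = 6) in livers and 2.17 ± 2.12 (SD, n = 12) in tumors. On the scaled values, 10 of 12 tumors lay below every liver. Tumor 8, at 8, was as high as the highest liver, and tumors 2 and 10 were listed at 0. The difference in log2 (scaled value + 1) was -1.11 (SE 0.32, limma adjusted p = 0.0196), or 2.16-fold lower on the scale of value + 1, which understates changes of low genes. Without liver 6, the liver with the highest value, the difference was -0.998 and the adjusted p was 0.0611. Without tumor 2 the difference was -1.02 (limma adjusted p = 0.0182). Within samples whose names carry the tag E19 (7 tumors and 2 livers) the difference was -1.06 and within E20 (5 tumors and 4 livers) -1.11, and neither passed the threshold alone (limma, adjusted p = 0.144 and 0.265).

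Des (chr1:75360292-75368579) encodes desmin, the intermediate filament of muscle cells and of rodent stellate cells. Its deposited value was 2 or 3 in every liver and 0 to 3 in tumors (median 1). After scaling, 11 of 12 tumors lay below every liver, and tumor 8 was the exception. Tumors and livers differed by -0.61 on the log2 scale (SE 0.19, limma adjusted p = 0.0312). This call was easily lost. A deposited value can be off by up to 0.5 from rounding, and over all such errors together the difference could lie anywhere between -1.13 and 0.04. The adjusted p ran from 0.0527 to 0.0905 when any 1 liver, tumor 1 or tumor 12 was left out, and was 0.118 without scaling. Without tumor 2 the difference was -0.53 (limma adjusted p = 0.0103).

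Reln (chr5:21884454-22344705), the secreted glycoprotein reelin, marks stellate cells in both their storing and their activated state. It was the most abundant of the 10 genes. Deposited values ran from 14 to 27 in livers (median 23) and from 5 to 51 in tumors (median 25.5). Tumors 8 and 10 were highest, at 51 and 50, and tumors lay on both sides of the livers, 7 above every liver and 2 below every liver after scaling. Among those 7 is tumor 2, whose deposited 5 became 25.8, and on deposited values 5 tumors lay above every liver and 4 below. The log2 difference was 0.19 (95% interval -0.38 to 0.75, limma adjusted p = 0.704), so a difference in mean beyond the spread was not detected for Reln, while Lrat and Des in the same samples were lower.

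Of the PDGF receptors only Pdgfra passed the test, and whether the receptors differ in their change was not tested. Pdgfra (chr5:75151322-75198206), the alpha receptor, which binds most PDGF chains, ran from 2 to 5 in livers (median 2.5) and from 0 to 3 in tumors (median 1), and 10 of 12 tumors lay below every liver after scaling. Its log2 difference was -0.86 (SE 0.24, limma adjusted p = 0.0135), and -0.80 in E19 samples, where it was too low to be tested, and -0.82 in E20 samples (limma adjusted p = 0.323). Without tumor 2 the Pdgfra difference was -0.81 (limma adjusted p = 0.00906). Pdgfra reached a scaled value of 1 in all 6 livers but only 4 tumors, so it could be tested mainly through the livers, and rounding could move its difference between -1.34 and -0.21. Pdgfrb (chr18:61045127-61085067), the beta receptor, through which PDGF-B drives stellate cells and pericytes, ran from 2 to 5 in livers (median 4) and from 1 to 9 in tumors (median 4). Its values overlapped between the groups, with 6 tumors above every liver and 1 below after scaling. Among those 6 is tumor 2, whose deposited 1 became 5.15, and on deposited values 3 tumors lay above every liver and 2 below. On the log2 scale Pdgfrb differed by 0.24 (95% interval -0.25 to 0.73, limma adjusted p = 0.538).

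Pdgfb (chr15:79995865-80024614), the gene of the PDGF-B chain, a strong mitogen for stellate cells that endothelial cells, macrophages and platelets release, was higher in tumors. It was 0 to 2 in livers (median 1), with 2 livers listed at 0, and 0 to 6 in tumors (median 3). Every tumor but tumor 2 exceeded every liver after scaling, and since a scaled value of 1 was reached in 11 tumors but only 3 livers, Pdgfb could be tested mainly through the tumors. Pdgfb differed by 1.13 on the log2 scale (SE 0.29, limma adjusted p = 0.0093), and 1.35 without tumor 2 (limma adjusted p = 0.000106). It was 0.97 within E19 and 1.04 within E20 samples, where Pdgfb was too low to be tested alone, and rounding could move it between 0.58 and 1.67. The other ligands were not all alike. Pdgfa was higher (1.12, limma adjusted p = 0.00015), Pdgfc was not (-0.01, adjusted p = 0.987), and Pdgfd, at 0 or 1 in every sample, was too low to test. Of 12 endothelial markers 3 were also higher (Pecam1 1.15, Cdh5 0.93 and Tie1 0.47), against 9.81% of all tested genes. Without scaling 1 of the 12 was higher, against 5.03%. The 12 markers summed to 52.7 to 122 in livers and 46.4 to 273 in tumors, the highest in tumor 2. Platelet markers summed to 1.90 to 3.61 in livers and 0 to 3.50 in tumors, with Gp9 and Gp1bb at 0 in every sample. The part of these cells in the Pdgfb difference was not tested.

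Tgfb1 (chr7:25687002-25705077), the main ligand that turns stellate cells into myofibroblasts, had the smallest p of the 10 genes. Deposited values were 3 to 5 in livers (median 4) and 1 to 12 in tumors (median 7), with a mean of 3.83 ± 0.753 (SD, n = 6) in livers and 7.08 ± 2.75 (SD, n = 12) in tumors. After scaling, 8 of 12 tumors lay above every liver and none below, and tumor 10 was highest. On deposited values 10 lay above every liver and 1 below, which was tumor 2, whose deposited 1 became 5.15. The log2 difference was 0.76 (SE 0.17, limma adjusted p = 0.0027). It was 0.52 within E19 samples and 0.77 within E20 samples, with adjusted p of 0.182 and 0.0417. Without scaling it was 0.64 with an adjusted p of 0.21, and without scaling the median of all genes moved from -0.06 to -0.18. Without tumor 2 the Tgfb1 difference was 0.81 with scaling and 0.82 without scaling (limma adjusted p = 0.00095 and 0.0017). Kupffer cells are also a source of this ligand. Of 9 Kupffer cell and macrophage markers tested, 8 had a negative difference. Of these 2 passed the test (Clec4f -1.47 and Marco -1.44), where 9.22% of all tested genes were lower. Without tumor 2, 3 of 10 were lower, against 12.1%. The list summed to 77.1 to 244 in livers and 33.0 to 163 in tumors. The part of Kupffer cells in the Tgfb1 difference was not tested.

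Acta2 and Tagln, the contractile genes that mark myofibroblasts and smooth muscle, ranged widely between tumors and did not pass the test over all samples. Acta2 (chr19:34240336-34255585) was 1 or 2 in 5 livers and 5 in liver 6, and ran from 0 to 11 in tumors (median 3.5), highest in tumor 6, then tumor 10 at 9 and tumor 8 at 7. Its log2 difference was 0.80 (SE 0.36, 95% interval 0.04 to 1.56), which had a limma adjusted p of 0.135. Tumor 2 decided the call, since without it the difference was 1.02 (limma adjusted p = 0.0148). The near-identical smooth muscle gene Actg2, whose reads could be shared with Acta2, was 0 in every liver and at most 1 in tumors. Tagln (chr9:45929628-45936058), an actin-binding protein of smooth muscle, was 1 to 4 in livers (median 3) and 0 to 11 in tumors (median 3). Its highest tumors were 8, 10, 5 and 6, at 11, 8, 7 and 7, and 7 tumors lay above every liver after scaling. The difference was 0.38 (95% interval -0.35 to 1.1, limma adjusted p = 0.509), and 0.58 without tumor 2 (adjusted p = 0.111).

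Vim (chr2:13574311-13582826), the intermediate filament vimentin of mesenchymal, endothelial and blood cells, ran from 7 to 28 in livers (median 11) and from 2 to 61 in tumors (median 18). Liver 1 was at 28 and tumor 10 at 61, and the groups overlapped, with 4 tumors above every liver after scaling. The log2 difference was 0.55 (95% interval -0.10 to 1.21, limma adjusted p = 0.244).

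In order of the median scaled level, which as a length-corrected quantity can be compared between genes, livers had Reln (21.8), Vim (10.7), Lrat (4.89), Pdgfrb (3.39), Tgfb1 (3.03), Tagln (2.60), Pdgfra (2.31), Des (2.09), Acta2 (1.07) and Pdgfb (0.902). Tumors had Reln (25.3), Vim (15.6), Tgfb1 (6.23), Pdgfrb (3.91), Tagln (3.70), Acta2 (2.86), Pdgfb (2.80), Lrat (1.87), Des (0.982) and Pdgfra (0.895). Lrat stood above Pdgfrb, Tgfb1 and Tagln in livers and under all of them in tumors. The ranges of neighbors in either order overlapped.

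Shares of one gene in a pair, taken within each sample from deposited values, do not depend on the scaling. They were formed after the values had been seen and are a description, with no test. Acta2 made up 16.7% to 38.5% (median 23.6%) of Acta2 plus Lrat in the 6 livers and 46.7% to 100% (median 62.5%) in the 11 tumors in which the share could be formed, so every one of these tumors lay above every liver. Over all 11707 genes paired with Lrat in this way, 3.8% had every tumor above every liver. The same held for Pdgfb plus Lrat, where Pdgfb made up 0% to 25% in livers (median 13.9%) and 33.3% to 100% in tumors (median 60.0%). With Des in the place of Lrat, Acta2 made up 33.3% to 62.5% in livers and 66.7% to 91.7% in tumors (median 75%), where 6.82% of all genes separated. The share of Pdgfra in the 2 receptors was 33.3% to 50% in livers (median 46.4%) and 0% to 50% in tumors (median 20%), and 10 of 12 tumors lay below every liver. With values this low a share moves in large steps, and tumor 2, listed at 0 for Acta2, Lrat, Des and Pdgfb, enters only the last one.

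**Figure D3:**
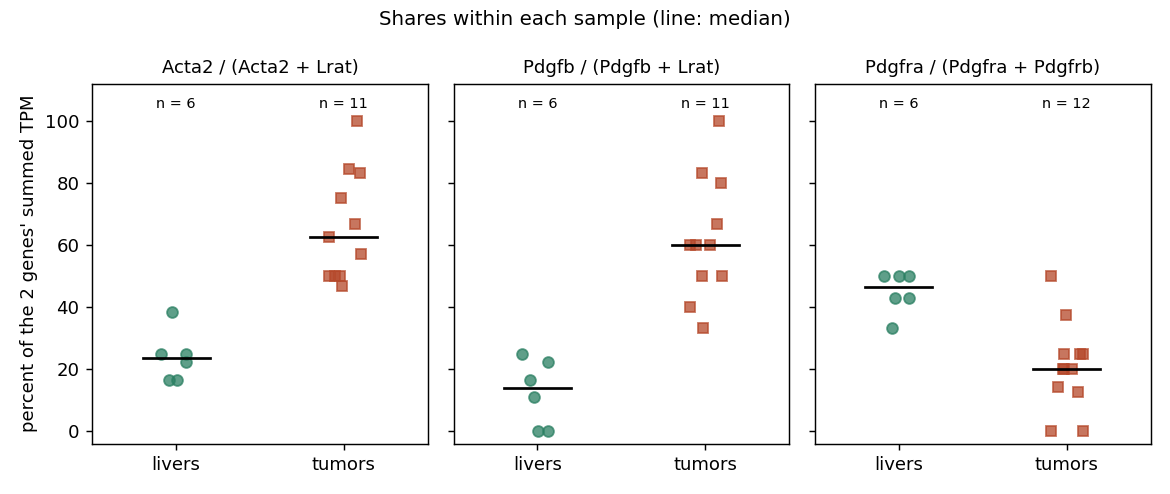
Share of one gene in the sum of a pair, in percent of deposited values, for each liver (circles) and tumor (squares). In Acta2 of Acta2 plus Lrat the 6 livers end at 38.5% and the 11 tumors with a value begin at 46.7%, and in Pdgfra of both receptors the medians are 46.4% and 20%.

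The tags E19 and E20 in the sample names, whose meaning is not given in the sources used here, were examined as a possible batch. No gene of the 10 had a difference between tumors and livers that itself differed between the tags (limma interaction, smallest adjusted p = 0.97), nor did any gene in the table (0% of 11708, with 347 at an unadjusted p under 0.05). The largest interaction among the 10 was that of Acta2, -0.62 (95% interval -2.27 to 1.02), whose difference was 1.14 in E19 and 0.52 in E20 samples, and the interval is wide.

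Tumors differed in which of the 10 genes were high. Tumor 8 had the highest deposited value of Lrat, Reln, Des, Pdgfrb and Tagln, and tumor 10 that of Pdgfb, Tgfb1 and Vim, with Lrat listed at 0. Tumor 6 had the highest Acta2. Tumor 3 had the lowest Pdgfrb after scaling. Tumors 11 and 12, from 1 mouse, were at 13 and 32 for Reln and at 7 and 6 for Tgfb1. Relative to its mean, Lrat varied most between tumors (coefficient of variation of scaled values 82.8%) and Tgfb1 least (26.0%).

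**Figure D4:**
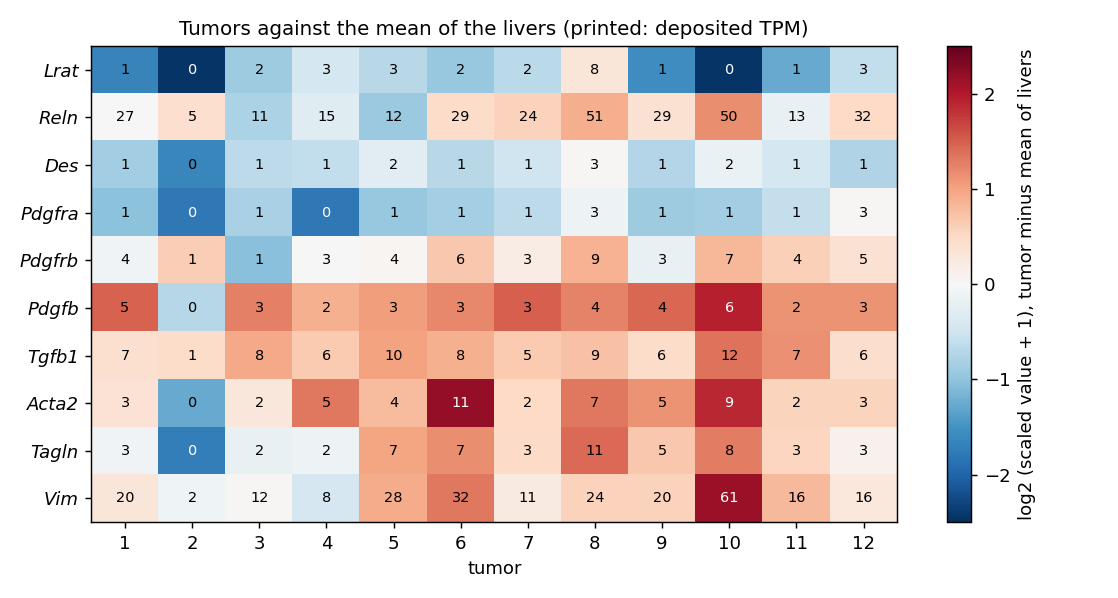
Scaled value of each gene in each of the 12 tumors relative to the mean of the livers, in log2 (scaled value + 1) units by color, with the deposited value printed in each cell. Tumor 10 combines 9 for Acta2, 61 for Vim and 12 for Tgfb1 with 0 for Lrat, whereas tumor 8 has 8 for Lrat and 11 for Tagln.

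All 45 pairs of the 10 genes were correlated over the tumors, with tumors 11 and 12 averaged (n = 11 mice) and 100000 permutations, two-sided. Of the 45 Pearson coefficients 40 were positive, with a median of 0.43, and 12 had an unadjusted permutation p under 0.05. After Benjamini-Hochberg adjustment 2 pairs passed, Tagln with Des (r = 0.89, permutation p = 0.00103, adjusted p = 0.034) and Acta2 with Tagln (r = 0.86, permutation p = 0.00151, adjusted p = 0.034). By ranks these had rho of 0.67 and 0.74, with adjusted permutation p of 0.319 and 0.198, and r fell to 0.61 without tumors 2 and 8 and to 0.64 without tumors 2 and 6. By ranks 1 other pair passed, Tagln with Vim (rho = 0.89, adjusted permutation p = 0.0184, r = 0.70). No pair passed by both coefficients. Without tumor 2 none passed by either (9 had an unadjusted Pearson p under 0.05), with r of 0.72 for Tagln with Des and 0.68 for Acta2 with Tagln, so the 2 Pearson calls rest on that sample. Without scaling 32 pairs passed by Pearson's r and 17 by both coefficients.

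As a description, the tested genes whose scaled values were most like those of a member over all 18 samples, by Pearson's r, were the following. For Tagln these were Cnn2 (0.90), a calponin, Csrp1 (0.89), Anxa3, Myof and Postn (0.87), the matrix protein periostin. For Lrat they were Gdf2, Dcn and Bmp5 (0.88 each), then Abat and Prpf8. Gdf2 encodes BMP9, a ligand that stellate cells make, and Dcn is decorin. For Des they were Ifitm1 (0.93), Cenpx and Cygb (0.90), the stellate cell globin cytoglobin, then Aptx and Adss1. Pdgfb was most like Tmem71 (0.95), Tspan9, Mad2l1, Tmem176b and Kcnj8 (0.92), a potassium channel of pericytes. Vim was most like Lgals3 (0.86), S100a6 (0.85), Btc, Igfbp6 and Pkm. Acta2 was most like Prss23 (0.86), Phlda3, Ldaf1, Dimt1 and Selenom. Pdgfrb was most like Frmd6 (0.85), Plxna1, Exoc4, Col6a3 (0.76), a chain of collagen VI, and Cdr2l. Tgfb1 was most like Slc44a3 (0.92), Itm2c, Pea15a, Lgmn and Msrb3, Pdgfra like Snora64 (0.86), Bcl9, D10Bwg1070e, Gucy1a1 and Zfp74, and Reln like Stam (0.70), Pld2, Cdc42bpg, Togaram1 and Mxd1. All values of a sample share its library, scaling and mix of cells, and many are low, so the coefficients are given without a test.

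Other genes of quiescent stellate cells were mostly lower in tumors. Of 23 such genes listed, Lrat, Reln and Des among them, 21 were tested, 13 were lower and 2 higher, with a median log2 difference of -0.98, where 9.22% of all tested genes were lower and 9.81% higher. The lower ones included Vipr1 (-1.85, limma adjusted p = 0.00072), a neuropeptide receptor, Ngfr (-1.63, adjusted p = 0.0075), the low-affinity neurotrophin receptor, Dcn (-1.30, adjusted p = 0.0013), Pth1r (-1.30, adjusted p = 0.00092), the parathyroid hormone receptor, Hand2 (-0.98, adjusted p = 0.0053), a transcription factor of stellate cells, and Hgf (-0.91, adjusted p = 0.011), the ligand of Met. Steap4, a metalloreductase, was higher (0.98, adjusted p = 0.0099). Without tumor 2 the counts were the same, 13 lower and 2 higher of 21, against 12.1% and 14.2% of all genes. Without scaling they were 12 lower and 1 higher of 22, against 5.04% and 5.03%. Hand2, Ngfr and Pth1r reached a scaled value of 1 in 2 to 5 tumors, so they could be tested mainly through the livers. Summed over the list, levels were 245 to 390 in livers and 165 to 392 in tumors, and so overlapped. Some of these genes are also expressed by other liver cells, and the part of such cells was not tested.

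Of 11 tested genes of retinoid handling, 5 were lower and 2 higher (median -0.66), where 9.22% of all tested genes were lower and 9.81% higher. Without scaling 3 of 11 were lower, where 5.04% of all genes were. Lower beside Lrat were Rbp4 (-0.66), the plasma carrier made by hepatocytes, Dhrs3 (-0.93), which reduces retinal to retinol, and Cyp26a1 and Cyp26b1 (-1.90 each), which break down retinoic acid. Pnpla3 (2.60), a lipase that also acts on retinyl esters, was higher. Cyp26b1 reached a scaled value of 1 in 4 tumors and Pnpla3 in 3 livers.

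The TGF-beta pathway was described by 3 lists. Of 12 tested ligands, releasing factors and receptors, 5 were higher (median 0.41), against 9.81% of all tested genes, namely Tgfb1, its receptors Tgfbr2 (1.74, limma adjusted p = 8.5e-06) and Tgfbr1 (0.49, adjusted p = 0.014), and Itgav (0.43) and Thbs1 (0.97), which take part in freeing the latent ligand. Thbs1 reached a scaled value of 1 in 10 tumors and in no liver, so it passed the filter only through the tumors. Tgfb2, at 0 in every liver and 0 to 4 in tumors, was not tested. Of 9 transducers and inhibitors, Smad3 was higher (0.72, adjusted p = 0.018), while the inhibitory Smad7 (-1.74, adjusted p = 1.3e-05) and Smad6 (-1.31, adjusted p = 0.004) were lower. Smad7 is itself a gene that TGF-beta induces, and of 6 induced genes tested it was the 1 that was lower, while Ccn2, a matricellular protein, was higher (0.995, adjusted p = 0.0031). Without tumor 2, 8 of 14 ligands and receptors and 4 of 10 transducers were higher, against 14.2% of all genes. Without scaling, 3 of 15 ligands and receptors were higher against 5.03%, and the call of Smad3 was lost. Without scaling and without tumor 2, 6 of 15 and 1 of 10 were higher against 10.9%.

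Of 14 tested genes of the contractile apparatus, 5 were higher and 1 lower (median 0.50), where 9.81% and 9.22% of all tested genes were. Higher were Tpm1 (1.55), Tpm4 (0.86), Myh9 (0.93), Cald1 (0.65) and Actn1 (0.81), which cells other than muscle also use, and Mylk, the myosin light chain kinase, was lower (-0.93). All 6 of these calls were lost without scaling between samples, where 5.03% of all genes were higher and 5.04% lower. Without scaling and without tumor 2, 6 of 16 were higher, against 10.9%. The smooth muscle genes Cnn1 and Lmod1, and Myocd, the smooth muscle cofactor of serum response factor, were at 0 in every sample. Srf itself did not pass (0.16, limma adjusted p = 0.457), and of 6 such factors tested Wwtr1, the coactivator TAZ, was higher (0.54).

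Some genes of other mesenchymal cells were higher too. The counts that follow stand beside 9.81% of all tested genes higher and 9.22% lower. Of 6 pericyte and vascular smooth muscle genes Mcam (1.19) and Kcnj8 (1.27) were higher, each at a scaled value of 1 or more in only 3 livers. Of 12 portal fibroblast genes only 3 were high enough to test, and all 3 were higher, which for genes near 0 in livers the filter itself favors, Entpd2 (1.96, limma adjusted p = 2.6e-07), Cd34 (1.24) and Gas6 (1.09), of which Cd34 and Gas6 are also expressed by endothelial or other cells. Of 13 fibroblast matrix genes 4 were higher, Sparc (2.51), Col1a1 (2.15), Col3a1 (1.55) and Col1a2 (1.40), and Dcn was lower. Col1a1 was 1 to 5 in livers and 2 to 62 in tumors. Of 5 tested genes linked to mesenchymal transition, Cdh1, the epithelial cadherin, was higher (2.77).

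Markers of the other cells in the tissue moved as well. Alb, the defining gene of hepatocytes, had deposited values of 19995 to 32414 in livers and 6050 to 53033 in tumors. The lowest was that of tumor 2, where a deposited value of 1 became a scaled value of 5.15. The mean scaled value was 23600 in livers and 35694 in tumors, and Alb did not pass the test (0.57, limma adjusted p = 0.104). Of 10 hepatocyte genes 1 was higher (Apoa1) and 3 lower (Cyp2e1, Ass1 and Cyp3a11), against 9.81% and 9.22% of all tested genes. Without tumor 2, 3 were higher and 3 lower, against 14.2% and 12.1% of all genes. Without scaling 2 were lower, against 5.04%, and the call of Apoa1 was lost. Of 3 tested cholangiocyte genes 2 were higher, Spp1 (4.45) among them, and 1 of 4 without scaling, against 5.03% of all genes. The list summed to 14.2 to 23.5 in livers and 63.8 to 928 in tumors, where Spp1 can also come from tumor cells and macrophages. Lymphocyte and neutrophil genes were near 0, with sums of 3.04 to 6.63 in livers and 1.27 to 18.4 in tumors, and the B cell marker Ms4a1 was at 0 throughout. The mesothelial gene Gpm6a was 0 in every liver and 0 to 7 in tumors, with Wt1 at 0 in every sample. Of 6 skeletal muscle genes 5 were at 0 in every sample. The part of the other cell types in the differences of the 10 genes was not tested.

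**Figure D5:**
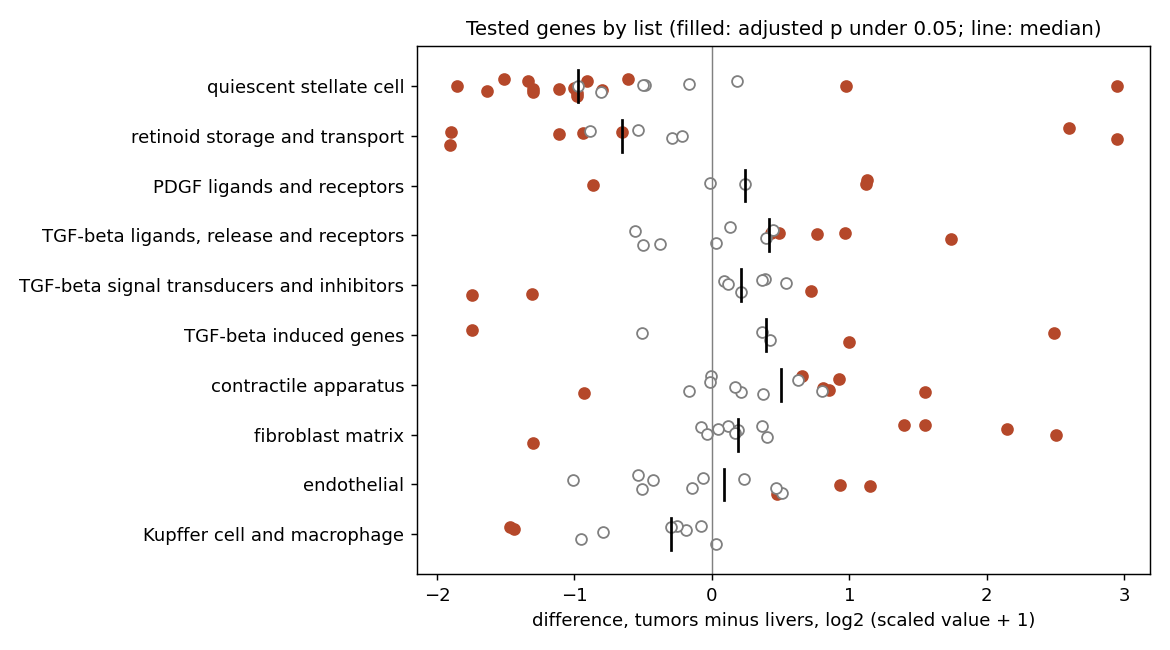
Log2 difference between tumors and livers of each tested gene in the lists (points, filled where the limma adjusted p is under 0.05) with a line at the median of each list. Quiescent stellate cell genes have a median of -0.98, against -0.06 for all tested genes, and ligands and receptors of TGF-beta one of 0.41.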

How the data were processed

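Poly-A RNA of 6 non-tumoral livers and 12 tumors had been sequenced in bulk, and samples were grouped by their titles. Reads were aligned by the authors to GRCm38, counted per gene by Salmon and expressed as TPM. What they deposited is a whole-number score, taken here for rounded TPM because no sample adds up to more than 907513. The submitters' processing notes also list edgeR, whose role is not given in the sources used here. An extra separator in 8 lines of the table was allowed for.

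The scaling trimmed 30% of M and 5% of A values, without weights, and was computed in Python 3.11.15. Genes that reached a scaled value of 1 in 6 or more samples were fitted on log2 (value + 1) by limma 3.58.1 (R 4.3.3, prior variance with a trend), after a test on simulated data. Tests followed the unit, so no count model was run. Promoter positions follow RefSeq, build GRCm38.p6.

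The members and lists were chosen with earlier results of these data known. Named genes are all 10 members, up to 6 genes a list that passed and up to 4 that define it and did not, and the 5 genes most like each member. Further genes at 0, and Tgfb2, were named after their values were seen. Alternatives concerned scaling, filter, pseudocount, weights, tag, age, the replicate number and each sample left out. Chosen after seeing the data were the list counts without tumor 2 or scaling, the rounding bounds, the shares and the relations without tumors 2 and 10. P-values measure the spread between samples, and the main limma fit took tumors 11 and 12, of 1 mouse, as independent. With these averaged, 2 of the 10 genes were higher and 3 lower (limma adjusted p = 0.0384 for Des, 0.0229 for Lrat and 0.0131 for Pdgfb). Over all 11640 tested genes 1097 were higher and 1050 lower in that fit. Some genes of the lists are counted but not reported here by name.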

Additional observations from a re-analysis of the deposited data

Results flagged for a closer look

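Liver 6 stood far from the other livers in Acta2. Its gap to the nearest liver was 0.834 of the whole range of the 6 livers on scaled values, above the critical ratio for 6 samples. Its deposited value was 5, against 1 or 2 in the other 5 livers. The 10 genes were examined in this way in the livers, and chance flags about 1 in 20 groups.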

How the results depend on the processing

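Over 35 alternative fits, 316 of 346 results for single genes kept their direction and their side of the threshold, 23 lost the call, 4 gained one and 3 turned. Of the 10 genes, 2 were higher and 3 lower. The count higher was 1 without scaling, with a pseudocount of 0.1, in E19 samples alone and in E20 samples alone, and 4 with sample quality weights, which added Acta2 and Vim. With weights 2317 of all 11708 tested genes were higher, against 1149 in the main fit. Without scaling 670 of 13309 were, and with a pseudocount of 0.1 it was 1096 of 11708. In E19 samples it was 758 of 10552 and in E20 samples 296 of 10312. The count lower was 0 with a pseudocount of 0.1, in E19 samples and in E20 samples. Over all tested genes 897 of 11708, 654 of 10552 and 108 of 10312 were lower in these fits, against 1080 of 11708 in the main fit. Leaving out 1 sample gave 2 to 3 higher and 1 to 3 lower, the 1 without liver 6, where Lrat and Des did not pass. In that fit 688 of all 11362 tested genes were lower. The difference of Reln turned to -0.069 with weights. That of Des could turn to 0.038 within rounding. Pairs of genes past the threshold across tumors were 32 without scaling, 0 without tumor 2 and 0 without tumors 2 and 10, against 2. The cause of these changes was not tested.

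Livers and tumors 1 to 6 share only a number. They came from different mice, and the correlation of their deviations ran from -0.10 to 0.42. With the number as a replicate block, 1 gene was higher, 2 were lower and Reln was at -0.19. The same 12 samples with no replicate block gave 1 higher, 3 lower and Reln at -0.19, with 633 higher and 629 lower over all genes. Over all genes, E20 samples alone had 73.3% of their calls higher, against 51.5%, and 2229 genes were called in all, against 4704 with weights, 1341 without scaling, 1412 in E19, 404 in E20 samples, 1420 with the replicate block and 1262 in its samples without it.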
